A study of Homo sapiens with 6 samples.

Results

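The genes described here encode the machinery that copies DNA in S phase, the enzymes that make deoxynucleotides for it, and the factors that assemble new chromatin behind the fork. They were chosen by name, as 53 listed genes in subgroups by role, and a gene counted as measured where the array annotation gave a transcript to that gene alone. On this rule 47 of the 53 genes were measured, each by 1 transcript, out of 22011 transcripts on the array. The transcripts of MCM7, PCNA, RPA3, POLA1, FEN1 and TIPIN also list other genes, so these 6 genes are named here without values.

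RNA came from MDA-MB-231, an established human triple-negative breast cancer cell line, 48 hours after lipofectamine transfection with control siRNA (3 arrays) or with siRNA against HMGA1 (3 arrays), a chromatin protein that binds the minor groove of AT-rich DNA. The sample titles name the treated cells shHMGA1, while the source names and protocols give siRNA, and these samples are called HMGA1 siRNA here. The design text gives separate knock-down experiments and control populations, numbered 1 to 3 in the titles, in unmodified cells that shared medium, transfection reagent and time, and the sequence of neither siRNA was used here. Values are log2 expression per transcript on exon arrays, on which 1 unit is a doubling of signal, and 3 arrays per group limit the precision.

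Before S phase the origin recognition complex, CDC6 and CDT1 load the ring of MCM proteins onto origins, and the kinase of CDC7 and DBF4, with MCM10, CDC45 and the GINS complex, turns the ring into a moving helicase. Clamp loader, sliding clamp and polymerases then copy both strands, while ribonucleotide reductase and thymidylate synthase supply the building blocks. Most of these genes are transcribed as cells approach S phase by E2F factors, which the RB protein restrains, so in tumour cell lines their messenger RNA levels are known to follow the share of cells that are cycling.

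The binding letters of E2F factors, which the selection of the genes did not use, lie near the start of many of them. The forms TTTCCCGC, TTTCGCGC, TTTGCCGC and TTTGGCGC were searched on both strands from 250 bases before to 50 bases after each annotated start in RefSeq (GRCh38.p14). A window was found for 42 of the 47 measured genes and none was given for MCM4, MCM5, GINS4, RPA2 and POLD3. At least 1 form was present in 20 of the 42 genes (47.6%), against 1090 of all 27305 genes with a window (3.99%) and 3.31% of all windows. All 3 genes of the E2F and fork group (E2F1, E2F2 and CLSPN) and 7 of 10 helicase genes held a form, against 4 of 8 polymerase genes, 3 of 7 licensing genes, and 1 each of the clamp loader, nucleotide supply and histone assembly genes. The CCAAT box (letters CCAAT, either strand) was in 24 of the 42 genes (57.1%, against 39.7% of all genes). The CHR element (TTTGAA, either strand), known from promoters of late cell cycle genes, was in 2 (4.76%, against 18.2%). The E2F forms can overlap each other on opposite strands, and none of them contains CCAAT or TTTGAA. A match is a run of letters and not a measured binding site, and the shares over all genes were not matched for base composition.

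The stretches shown are those of the 6 genes with an E2F form and the smallest p between the arrays numbered 3 and the other arrays, followed by the 2 genes with a window and the smallest size of that difference, LIG1 and POLD2. Each runs 5′ to 3′ on the gene's strand from 60 bases before the start to 20 bases of transcript, except LIG1, whose stretch runs from 150 to 70 bases before it, and E2F forms are in capitals.
GINS2 (chr16:85688935-85689014, minus strand): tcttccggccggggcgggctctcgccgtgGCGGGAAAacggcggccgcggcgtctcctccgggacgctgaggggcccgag
CDC6 (chr17:40287819-40287898, plus strand): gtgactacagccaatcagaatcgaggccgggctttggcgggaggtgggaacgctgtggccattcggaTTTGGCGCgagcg
GINS3 (chr16:58392411-58392490, plus strand): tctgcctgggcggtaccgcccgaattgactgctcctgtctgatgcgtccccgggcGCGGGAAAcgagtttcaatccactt
MCM2 (chr3:127598351-127598430, plus strand): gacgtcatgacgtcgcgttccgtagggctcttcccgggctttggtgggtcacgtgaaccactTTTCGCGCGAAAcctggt
E2F1 (chr20:33686366-33686445, minus strand): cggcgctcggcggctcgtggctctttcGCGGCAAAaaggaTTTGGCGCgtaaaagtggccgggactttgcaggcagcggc
POLE (chr12:132687323-132687402, minus strand): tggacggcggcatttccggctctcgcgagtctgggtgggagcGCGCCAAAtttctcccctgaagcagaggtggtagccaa
LIG1 (chr19:48170415-48170494, minus strand): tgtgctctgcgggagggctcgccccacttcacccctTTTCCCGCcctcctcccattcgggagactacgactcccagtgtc
POLD2 (chr7:44123529-44123608, minus strand): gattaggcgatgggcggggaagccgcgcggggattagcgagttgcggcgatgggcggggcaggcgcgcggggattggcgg
MCM2 and E2F1 each hold 2 forms in the printed stretch, in MCM2 as an overlapping pair on opposite strands, and POLD2 holds none.

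The median over all transcripts lay between 8.28 and 8.38 on the 6 arrays, and no pair of arrays held identical values. HMGA1 itself, on a transcript annotated also to the pseudogene HMGA1P8, was at 10.11, 10.25 and 10.35 on the control siRNA arrays and at 9.81, 9.65 and 9.76 on the HMGA1 siRNA arrays. On this transcript the targeted gene was thus lower on every HMGA1 siRNA array, by 0.50 on the log2 scale (standard error 0.10), with limma adjusted p = 0.806. A further transcript, annotated to both APOE and HMGA1, was at 8.42, 8.52 and 8.74 against 8.63, 8.24 and 8.44. Its groups overlapped (difference -0.12, standard error 0.13). The mesenchymal markers VIM, CD44, AXL, CAV1 and MSN were at 12.24 to 13.97, and the hormone receptors ESR1 (6.57 to 7.07) and PGR (4.90 to 5.28) lay below the median of every array. Of the other luminal and epithelial markers, which are known to be low in this line, ERBB2, GATA3 and KRT19 lay above that median on every array. CDH1, the epithelial cadherin, was at 9.40, 9.34 and 7.56 with control siRNA and 8.78, 9.01 and 7.28 with HMGA1 siRNA.

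Across the 6 arrays the replication genes stood apart on 2. Taken as the deviation from each gene's mean over the arrays, the median of the 47 genes was 0.00, 0.02 and -0.20 on control siRNA replicates 1, 2 and 3, and 0.00, 0.18 and -0.01 on HMGA1 siRNA replicates 1, 2 and 3. Control siRNA replicate 3 was the lowest of the 6 arrays for 33 of the 47 genes (70.2%), where 18.4% of all transcripts were lowest on that array. HMGA1 siRNA replicate 2 was the highest for 32 (68.1%), where 22.0% of all transcripts were highest and 37.7% lowest there. The other 4 arrays lay close together for these genes. In bulk RNA, fewer cells in S phase and less of these transcripts per cell cannot be told apart. Over all transcripts, dim ones included, the median deviation on the same 2 arrays was 0.04 and -0.06, opposite in sign to that of the replication genes. The same 2 arrays also had the extreme standard deviations over all transcripts, smallest on control siRNA replicate 3 (2.055) and largest on HMGA1 siRNA replicate 2 (2.137). The part of this array-wide spread in the levels of the replication genes was not tested.

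**Figure D1:**
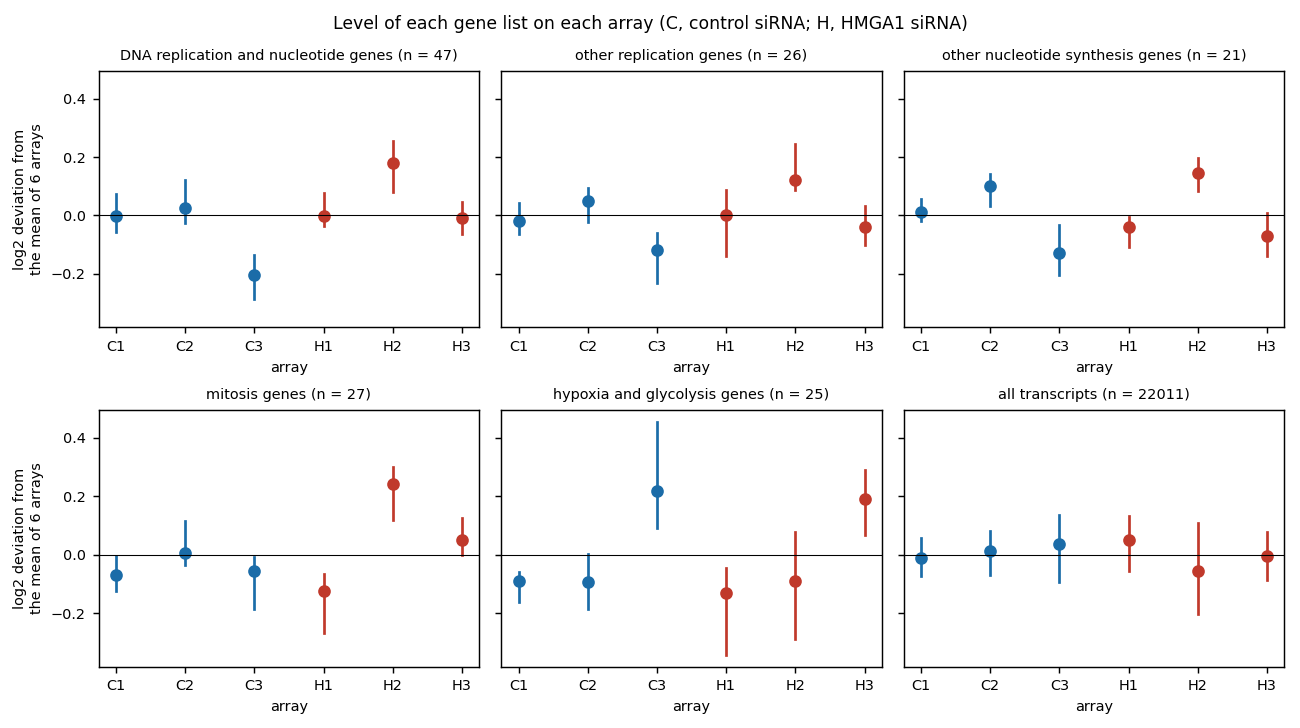
Deviation from the mean of the 6 arrays (log2, vertical axis) on each array (C, control siRNA; H, HMGA1 siRNA; with replicate number) for the 47 genes, 4 other gene lists and all transcripts, where points are medians over genes and lines run from the lower to the upper quartile. The 47 genes are at -0.20 on C3 and 0.18 on H2 and close to 0 on the other arrays.

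The subgroups differed in how far they departed on these arrays. On control siRNA replicate 3 the median deviation was -0.26 for the clamp loader and single-strand binding genes, -0.24 for histone assembly, -0.22 for the helicase, -0.21 for nucleotide supply, -0.17 for the E2F and fork genes, -0.15 for the polymerases and -0.08 for origin licensing. On HMGA1 siRNA replicate 2 it was 0.21 for the helicase, the clamp loader and nucleotide supply, 0.16 for licensing, 0.14 for histone assembly, 0.08 for the polymerases and 0.04 for the E2F and fork genes. The differences between subgroups were not tested. Within a subgroup single genes departed from the rest, and ORC1, CDT1, E2F2 and POLD1 among others were not low on control siRNA replicate 3 (8.60, 8.99, 8.07 and 9.66, against control values on replicates 1 and 2 of 8.39 to 8.41, 8.88 to 8.98, 7.81 to 7.98 and 9.60 to 9.62).

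**Figure D2:**
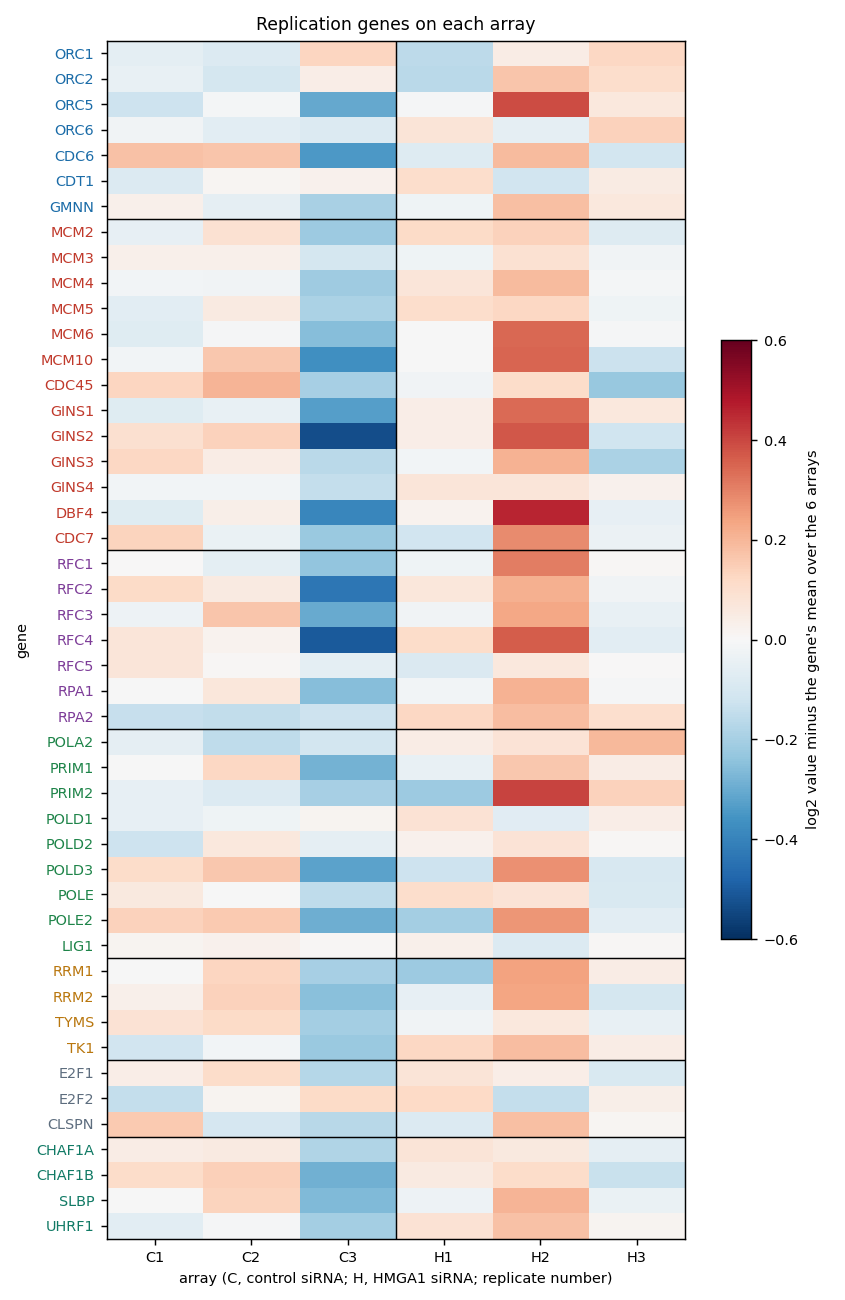
Log2 value minus the gene's mean over the 6 arrays for each of the 47 genes (rows, grouped and coloured by subgroup) on each array (columns C1 to C3, control siRNA; H1 to H3, HMGA1 siRNA), blue below and red above the mean. Column C3 is blue for most genes and column H2 red, being the lowest array for 33 genes and the highest for 32.

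HMGA1 siRNA was compared with control siRNA to see whether the S phase machinery differed after the knock-down. The replication genes were slightly higher with HMGA1 siRNA, by a median of 0.09 on the log2 scale, and none passed the test. The moderated test of limma, adjusted over all 22011 transcripts, called 0 of the 47 genes (lowest adjusted p = 1.00) and 0 transcripts in all (0%). At an unadjusted p under 0.05 there were 4 genes, all higher, where 3.31% of all transcripts were at such a p in either direction. Estimates were above 0 for 41 genes and below 0 for 6, where 46.1% of all transcripts were above 0 and their median was -0.01. This background depended on dim transcripts. Without the dimmest 40%, 52.3% of transcripts were above 0 with a median of 0.006, and 40 of 46 genes were above 0. Most of the genes shared their lowest and their highest array, so such counts are not counts of independent genes. Estimates of the 47 genes ran from -0.09 (CDC45) to 0.30 (ORC5), and the 95% limits of single genes spanned -0.42 to 0.70. The 3 HMGA1 siRNA arrays all exceeded the 3 control arrays in 9 genes (ORC5, MCM4, MCM6, GINS1, GINS4, RPA2, POLA2, TK1 and UHRF1), where 4.28% of all transcripts did so, and below in 0, where 3.51% did so.

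RPA2, a subunit of the protein that coats single-stranded DNA at the fork, had the smallest p of the genes. It was at 8.26, 8.25 and 8.28 on the control siRNA arrays and at 8.53, 8.59 and 8.51 on the HMGA1 siRNA arrays. The arrays of each group lay close together and the groups did not overlap. The log2 difference was 0.28 (standard error 0.08), 1.21 times the control level, with unadjusted p = 0.0112 and limma adjusted p = 1.00. Its partner RPA1 was at 11.09, 11.17 and 10.84 against 11.08, 11.30 and 11.09, and these groups overlapped (difference 0.12, standard error 0.12).

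POLA2, the regulatory subunit of the polymerase that starts new strands with a primer, was at 9.06, 8.96 and 9.00 with control siRNA and 9.16, 9.20 and 9.31 with HMGA1 siRNA. The groups did not overlap and the difference was 0.21 (standard error 0.09, unadjusted p = 0.0471). TK1, the thymidine kinase of the salvage pathway, was at 11.10, 11.20 and 10.99 against 11.34, 11.40 and 11.26. These groups did not overlap either, with a difference of 0.24 (standard error 0.10, unadjusted p = 0.0414). Both had limma adjusted p = 1.00.

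GINS1, a subunit of the GINS complex of the active helicase, was at 10.00, 10.03 and 9.75 with control siRNA and at 10.12, 10.41 and 10.14 with HMGA1 siRNA. The groups did not overlap, but control siRNA replicate 3 was low and HMGA1 siRNA replicate 2 high, and the difference was 0.30 (standard error 0.13, unadjusted p = 0.0486). ORC5, a subunit of the origin recognition complex, was at 9.45, 9.56 and 9.26 against 9.56, 9.96 and 9.64. The lowest HMGA1 siRNA array was nearly level with the highest control array, and the difference of 0.30 (standard error 0.14) had unadjusted p = 0.0631.

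MCM4 and MCM6, subunits of the helicase ring, differed by 0.17 and 0.22 (standard errors 0.10 and 0.13). MCM6 was at 9.37, 9.43 and 9.18 against 9.44, 9.78 and 9.43. For this subunit the groups did not overlap, and the values of HMGA1 siRNA replicates 1 and 3 were near the higher control values. UHRF1, which guides the copying of DNA methylation, was at 10.71, 10.76 and 10.57 against 10.86, 10.95 and 10.79, a difference of 0.19 (standard error 0.10, unadjusted p = 0.0968). DBF4, the activating subunit of the CDC7 kinase, was at 6.65, 6.76 and 6.33 against 6.75, 7.18 and 6.67, and these groups overlapped. The clamp loader subunits RFC1 and RFC4 differed by 0.19 and 0.28, and geminin (GMNN), the inhibitor of CDT1, by 0.14, all with overlapping groups.

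By role, all 7 licensing genes were above 0 (median 0.07), as were 11 of 13 helicase genes (median 0.13), 6 of 7 clamp loader and single-strand binding genes (median 0.18) and 7 of 9 polymerase genes (median 0.06). In nucleotide supply 3 of 4 genes were above 0, with TK1 at 0.24 and the reductase subunits RRM1 and RRM2 and the thymidylate synthase TYMS between 0.00 and 0.05. The 3 genes of the E2F and fork group had the smallest median, 0.01, and the 4 histone assembly genes had 0.07. None of these subgroups held a gene past the adjusted threshold.

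**Figure D3:**
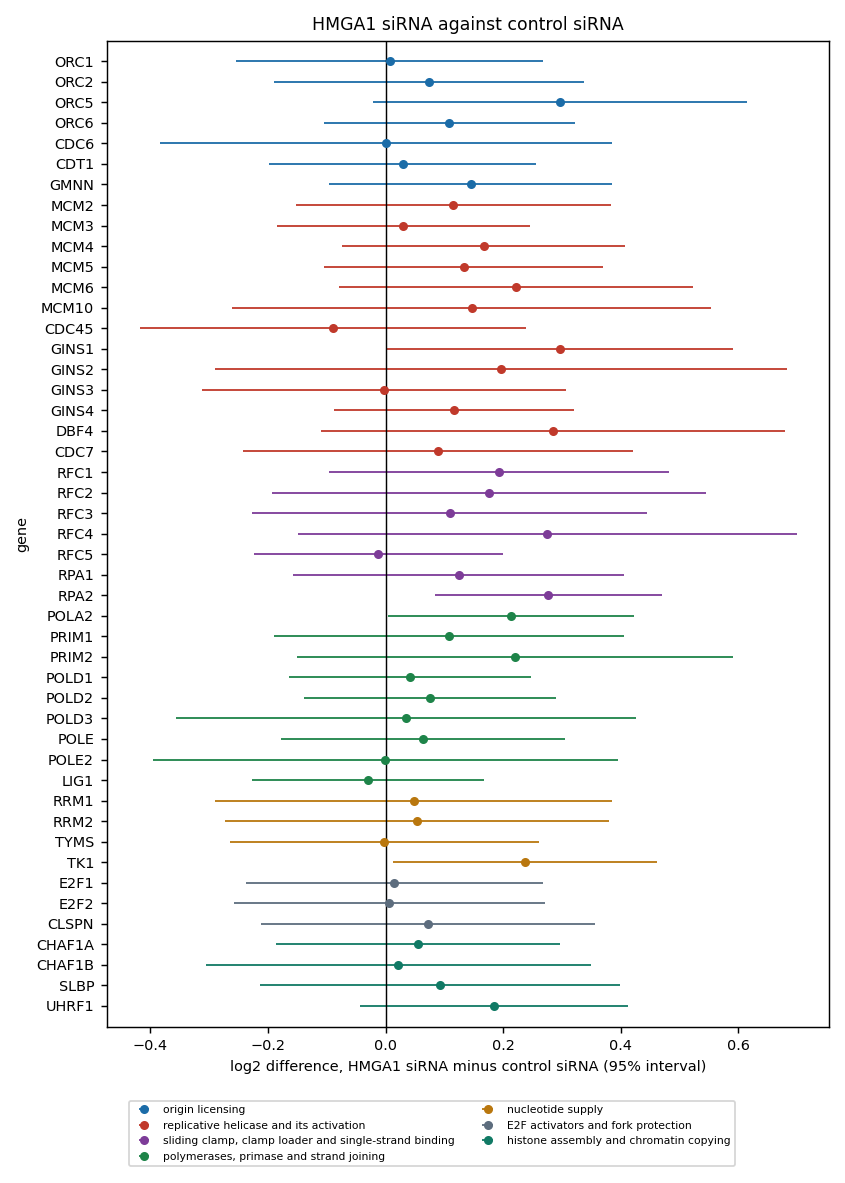
Log2 difference between HMGA1 siRNA and control siRNA (points) with 95% intervals from limma (lines) for the 47 genes, coloured by subgroup, 3 arrays per group. Estimates run from -0.09 to 0.30, most intervals cover 0, and those of RPA2, POLA2, TK1 and GINS1 lie above it before adjustment.

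The difference was smaller without the arrays that stood apart. Control siRNA replicate 3 was lowest and HMGA1 siRNA replicate 2 highest for most of these genes, so leaving them out was bound to shrink it. Without control siRNA replicate 3 the median over the genes was 0.03 and 27 of 47 were above 0, and without HMGA1 siRNA replicate 2 it was 0.05 and 33 were above 0. With both of these arrays left out, a setting chosen after seeing the data, the median was -0.02 and 21 of 47 genes were above 0 (44.7%), where 58.6% of all transcripts were. RPA2 (0.26), POLA2 (0.22) and TK1 (0.15) were still higher with HMGA1 siRNA on the remaining arrays. GINS1 was then at 0.11, ORC5 at 0.10, MCM6 at 0.03, DBF4 at 0.01 and RFC4 at -0.02.

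The titles number the replicates within each group, without saying that a number is shared between groups. The arrays numbered 3 were compared with the 4 other arrays, with the siRNA as a term. The titles give no reason to single out number 3, and arrays numbered 1 or 2 were not compared in this way. The p-values do not allow for that choice. The replication genes were lower on the arrays numbered 3, by a median of 0.18 in size, and none passed the test. The estimate was below 0 for 39 of the 47 genes, where 42.8% of all transcripts were below 0 and the median over all transcripts was 0.03. Without the dimmest 40%, 49.7% of transcripts were below 0 with a median of 0.002, and 38 of 46 genes were below 0. In limma 0 of the 47 genes were called lower (lowest adjusted p = 0.197), where 59 transcripts, 0.268% of all, were. At an unadjusted p under 0.05 there were 9 genes, all lower, where 7.98% of all transcripts were lower at such a p. Both arrays numbered 3 lay below all 4 others for 16 genes, where 13.0% of all transcripts did so, and above them for 1 (ORC1), where 11.4% did so. Replicate 3 was the lowest of its siRNA group in both groups for 23 genes, where this held for 18.0% of all transcripts. Both comparisons use the same 6 arrays, so a low value on control siRNA replicate 3 or a high one on HMGA1 siRNA replicate 2 enters both.

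GINS2, a further subunit of the GINS complex, had the largest difference of the 47 genes. It was at 10.14, 10.18 and 9.51 on control siRNA replicates 1, 2 and 3 and at 10.08, 10.41 and 9.92 on HMGA1 siRNA replicates 1, 2 and 3. Replicate 3 was the lowest array of each group, and lower with control siRNA than with HMGA1 siRNA. The log2 difference was -0.49 (standard error 0.13, limma adjusted p = 0.199), or 0.713 of the level on the other arrays.

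RFC4, a clamp loader subunit, was at 10.73, 10.68 and 10.16 with control siRNA and 10.77, 11.02 and 10.60 with HMGA1 siRNA. Both arrays numbered 3 lay below the other 4, and the difference was -0.43 (standard error 0.11, limma adjusted p = 0.197), the smallest p of the genes. RFC2, of the same complex, was at 10.30, 10.24 and 9.75 against 10.25, 10.40 and 10.16. Control siRNA replicate 3 lay furthest below the rest, and the difference was -0.34 (standard error 0.11). RFC5 was level on all arrays, from 9.67 to 9.82 (difference -0.04).

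CDC45, which joins the MCM ring and GINS in the working helicase, was at 10.18, 10.26 and 9.86 with control siRNA and 10.03, 10.17 and 9.83 with HMGA1 siRNA. The 2 arrays numbered 3 were nearly level with each other and below the rest, and the difference was -0.32 (standard error 0.09, adjusted p = 0.204). CHAF1B, a subunit of the chromatin assembly factor that places histones on new DNA, was at 9.81, 9.84 and 9.41 against 9.75, 9.81 and 9.57. Its 4 other arrays lay within a narrow range, both arrays numbered 3 below it, and the difference was -0.31 (standard error 0.09, adjusted p = 0.210).

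MCM10, an origin firing factor, was at 9.74, 9.92 and 9.39 with control siRNA and 9.75, 10.10 and 9.63 with HMGA1 siRNA, a difference of -0.37 (standard error 0.13). GINS3 was at 8.90, 8.82 and 8.61 against 8.76, 8.98 and 8.58, a difference of -0.27 (standard error 0.10). MCM2, of the helicase ring, was at 9.66, 9.80 and 9.50 against 9.83, 9.85 and 9.64, a difference of -0.22 (standard error 0.08). In all these genes replicate 3 was the lowest of its own group in both groups, with adjusted p between 0.283 and 0.328.

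CDC6, which loads the MCM ring, had the largest difference of the licensing genes. It was at 10.41, 10.41 and 9.90 with control siRNA and 10.16, 10.43 and 10.13 with HMGA1 siRNA, and HMGA1 siRNA replicates 1 and 3 were nearly level. The difference was -0.34 (standard error 0.12, adjusted p = 0.300). The median of the 7 licensing genes was 0.04, with 3 below 0. ORC1, an ATP-binding subunit of the origin recognition complex, was at 8.41, 8.39 and 8.60 against 8.31, 8.51 and 8.59. It was highest on both arrays numbered 3 (difference 0.19, adjusted p = 0.447), the one gene of the 47 with that order.

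All 13 helicase genes were below 0 (median -0.20, from -0.49 to -0.09), as were all 7 clamp loader and single-strand binding genes (median -0.20), all 4 nucleotide supply genes (median -0.16) and all 4 histone assembly genes (median -0.20). Among polymerase genes 6 of 9 were below 0 (median -0.05). POLD3 and POLE2, accessory subunits of the replicative polymerases, had -0.31 and -0.27, while the catalytic subunit POLD1 had 0.04, the accessory subunit POLD2 -0.03 and the ligase LIG1 0.01. In nucleotide supply RRM2, the subunit of ribonucleotide reductase made in S phase, was at 11.01, 11.12 and 10.73 against 10.93, 11.21 and 10.87 (difference -0.27, adjusted p = 0.374). E2F1, an activator of these genes, was at 10.80, 10.87 and 10.59 against 10.84, 10.80 and 10.67 (difference -0.20, adjusted p = 0.361), and E2F2 had 0.11. SLBP, which binds histone messenger RNA, had -0.23 and the large chromatin assembly subunit CHAF1A -0.18. No gene of these subgroups passed the adjusted threshold.

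**Figure D4:**
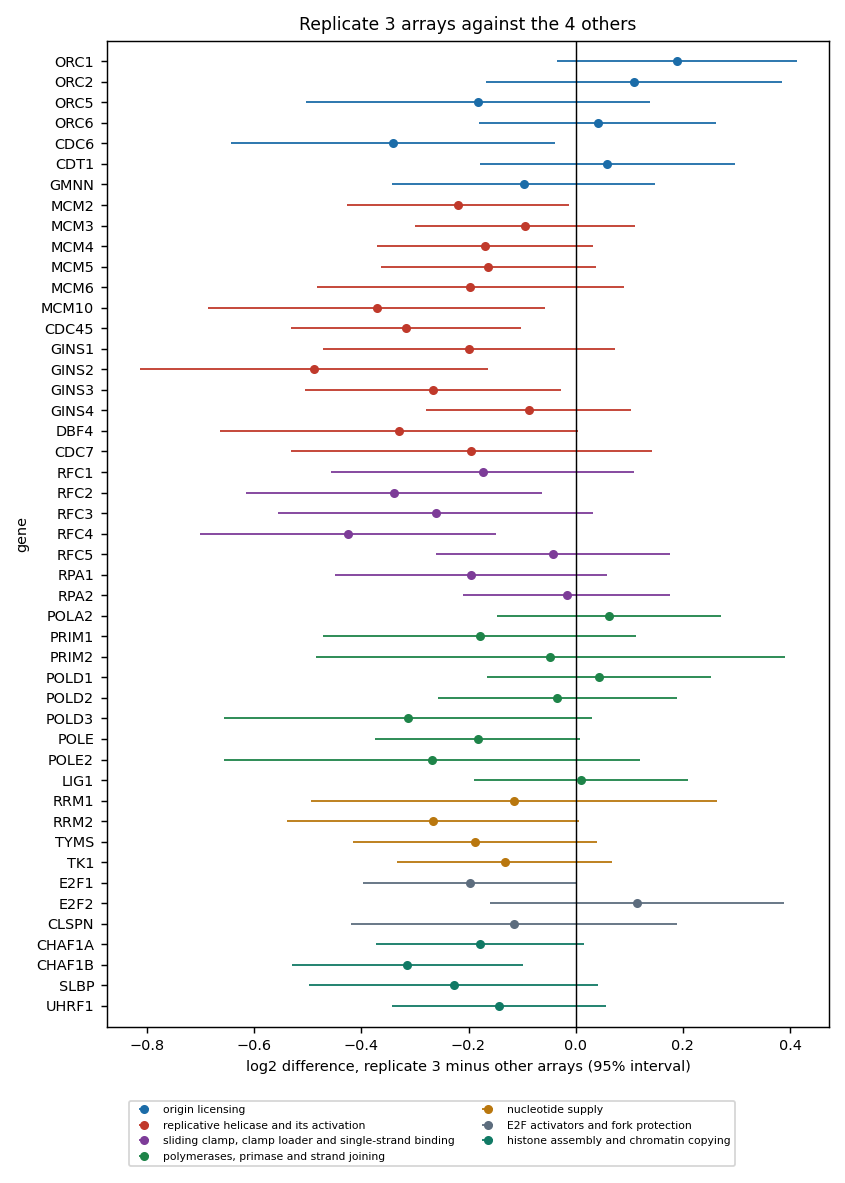
Log2 difference between the 2 arrays numbered 3 and the 4 other arrays (points) with 95% intervals from limma (lines) for the 47 genes, coloured by subgroup. Estimates run from -0.49 (GINS2) to 0.19 (ORC1) and all helicase genes lie below 0.

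Genes with and without an E2F form near their start did not separate in this comparison. The median difference was -0.19 for the 20 genes with a form (16 below 0) and -0.18 for the 22 genes without one (18 below 0). The genes with printed stretches were chosen by this comparison, so their contrast is no test of the form. GINS2, CDC6, GINS3, MCM2, E2F1 and POLE were lower on both arrays numbered 3 than on all others. LIG1, which also holds a form, was between 9.16 and 9.27 on all 6 arrays. RFC4, the gene with the smallest p, holds no form in its window.

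Within each siRNA group the difference had unequal support. With control siRNA, replicate 3 minus the mean of the other arrays had a median of -0.23 over the genes. It was below 0 for 41 of 47 genes and for 9189 of all 22011 transcripts. Control siRNA replicate 3 was below replicate 1 for 40 genes (41.7% of all transcripts) and below replicate 2 for 40 (44.1%). With HMGA1 siRNA the median was -0.12 with 36 of 47 below 0, where 10752 of all transcripts were below 0. There replicate 3 was below replicate 2 for 40 genes (median -0.20), where 41.9% of all transcripts were. It was below replicate 1 for only 29 genes (median -0.02), where 60.7% of all transcripts were below replicate 1 and their median was -0.05. The difference between the groups had a median of 0.11 and in limma was called for 0 genes and 0% of all transcripts. At an unadjusted p under 0.05 it held for 0 of the 47 genes and 299 of all 22011 transcripts, with 2 residual degrees of freedom.

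With control siRNA replicate 3 and HMGA1 siRNA replicate 2 left out, the median difference of the arrays numbered 3 was -0.02. This compares HMGA1 siRNA replicate 3 with HMGA1 siRNA replicate 1 alone, and the choice of arrays was bound to shrink the difference, so it is given as a value. Of the 12 genes with the smallest p in this comparison, those furthest below 0 were then CDC45 (-0.20), MCM2 (-0.19), CHAF1B (-0.19), GINS3 (-0.17), RFC4 (-0.17) and E2F1 (-0.17). GINS2 was at -0.16, and CDC6 and RRM2 were at -0.04 and -0.06. Without HMGA1 siRNA replicate 1, 4 of the 47 genes passed the adjusted threshold of limma, where 1046 of all 22011 transcripts did. They were GINS2 (adjusted p = 0.0386), RFC4 (0.0424), POLD3 (0.0459) and POLE2 (0.0485).

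Other genes of the same pathways were taken from whole lists, and those named are among the genes of smallest p in a list. Of 29 further replication genes 26 were measured, with a median of 0.06 with HMGA1 siRNA (20 above 0) and -0.13 on the arrays numbered 3 (21 below 0). ASF1B, a histone chaperone, had -0.33 (adjusted p = 0.197) and TOPBP1, a scaffold of origin firing, -0.30 (adjusted p = 0.302) on the arrays numbered 3. Of 26 further nucleotide synthesis genes 21 were measured, with medians of 0.04 and -0.16, the latter with 18 below 0. MTHFD2, of mitochondrial folate metabolism, had -0.41 (adjusted p = 0.128) and the deoxycytidine kinase DCK -0.46 (adjusted p = 0.237). None of these genes passed the adjusted threshold in either comparison.

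The E2F and RB pathway genes (17 of 20 measured) had medians of 0.07 with HMGA1 siRNA and -0.08 on the arrays numbered 3. CCNE2, a cyclin that drives entry into S phase, was at 10.13, 10.29 and 9.72 with control siRNA and 8.95, 9.66 and 9.36 with HMGA1 siRNA. The groups did not overlap and the difference was -0.72 (standard error 0.21, unadjusted p = 0.0101, adjusted p = 1.00), on the other side of 0 from most replication genes. The related CCNE1 had -0.51 on the arrays numbered 3 (adjusted p = 0.118). CDKN1A, an inhibitor of the kinases that start S phase, was at 9.49, 9.48 and 9.97 with control siRNA and 9.29, 9.30 and 9.77 with HMGA1 siRNA. It was highest on replicate 3 in each group, by 0.48 (standard error 0.08, adjusted p = 0.0864).

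The 27 measured of 30 mitosis genes, which act later in the cycle, had a median of 0.01 on the arrays numbered 3, with 13 below 0. Their median deviation was 0.24 on HMGA1 siRNA replicate 2 and -0.06 on control siRNA replicate 3, and it was lowest on HMGA1 siRNA replicate 1 (-0.12). They were therefore high on the same array as the replication genes without being as low on control siRNA replicate 3, a difference that was not tested. CDC20, an activator of the anaphase ubiquitin ligase, had 0.27 and the survivin gene BIRC5 -0.32 on the arrays numbered 3.

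Some hypoxia and glycolysis genes and some epithelial markers differed on the arrays numbered 3. Of 25 hypoxia and glycolysis genes measured (of 29), 23 were higher on them in estimate, with a median of 0.29, and 4 passed the adjusted threshold. Of all 22011 transcripts 57.2% were above 0 in this comparison, and 44 were called higher and 59 lower. LOX, a collagen cross-linking enzyme, was at 9.45, 9.48 and 11.36 with control siRNA and 9.63, 9.69 and 11.38 with HMGA1 siRNA. It rose by 1.80 (adjusted p = 0.00619), and NDRG1, CA12 and PDK1 rose by 1.38, 1.53 and 1.03 (adjusted p between 0.00870 and 0.0177). Of the 7 luminal and epithelial markers 3 passed, in both directions. CDH1 fell by 1.71 (adjusted p = 0.00870), while the adhesion molecule EPCAM rose by 1.08 (adjusted p = 0.0435) and the keratin KRT19 by 0.77 (adjusted p = 0.0448). ESR1, PGR, ERBB2 and GATA3 did not pass (differences from -0.09 to 0.10). Within the groups LOX was 1.89 higher on replicate 3 with control siRNA and 1.71 higher with HMGA1 siRNA. The part of these genes in the levels of the replication genes was not tested.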

How the data were processed

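RNA of 6 cultures was measured on Affymetrix exon arrays. The authors deposited 1 table of log2 values per transcript, made with RMA in the oligo package (the submitters' processing notes also name hg18 and limma, and versions are not given in the sources used here). RMA scales arrays to 1 distribution of probe signals and leaves background in dim transcripts, which compresses their differences. Here all 22011 transcripts were fitted with limma 3.58.1 in R 4.3.3 (lmFit and eBayes, two-sided). P-values were adjusted by Benjamini-Hochberg across the whole table and called under 0.05, for HMGA1 siRNA against control siRNA, for arrays numbered 3 against the others with siRNA as a term, and for their interaction. Genes were named from the platform annotation, where 14432 transcripts list 1 symbol, 2408 several and 5171 none. Full statistics are given for HMGA1 and among the 12 genes of smallest p in each comparison, and for up to 2 genes per further list. Genes outside this rule (RPA1, RFC5, ORC1, CA12, PDK1, CDH1 and others) were chosen after their values were seen. Alternatives were centring by the median, quantile normalization, another prior, a table without its dimmest 40%, array weights, the mean over transcripts of a gene, transcripts with 1 symbol, each array left out, the replicate number as a block or as a term, and no siRNA term. The members and lists were chosen with earlier results of these data known. The fit was tested on simulated data. Figures were drawn with matplotlib 3.10.9.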

Additional observations from a re-analysis of the deposited data

How the results depend on the processing

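The 3 arrays per group and the compressed scale of dim transcripts limit what could be called. For HMGA1 siRNA against control siRNA the median over the 47 genes was 0.09. Without control siRNA replicate 3 and HMGA1 siRNA replicate 2 it was -0.021, with 21 genes above 0 in place of 41 and RFC4 at -0.021. These arrays were chosen after seeing the data, a choice bound to lower the median. With array weights the median was 0.00 (-0.0022), with 23 genes above 0, RFC4 at -0.0026 and 198 transcripts called, none of them among the 47 genes. With 1 array left out the genes above 0 ranged from 27 (without control siRNA replicate 3) to 43. The genes with groups apart, HMGA1 siRNA higher, ranged from 9 to 14, where 6.40% to 10.6% of all transcripts were apart in this direction. They were 14 without both arrays numbered 3, where 13.2% of all transcripts were, and fewer arrays make a lack of overlap more frequent.

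For the arrays numbered 3, the 103 transcripts called were 407 without the dimmest 40%, 371 with a trended and robust prior, 212 among transcripts with 1 symbol, 164 without the siRNA term and 6341 (28.8%) with array weights. They ranged from 0 to 1046 with 1 array left out, and were 0 without both arrays that stood apart, where the median over the genes was -0.024. With array weights 30 of the 47 genes were called (29 lower and ORC1 higher) in a fit that gave each array numbered 3 a weight of 11.1 and the others 0.0837 to 0.678. With 1 array left out 0 to 4 of the 47 genes were called, where 0 to 1046 of all 22011 transcripts were. The cause of these shifts was not tested. Same-numbered arrays of the 2 groups deviated with correlations of -0.20, 0.26 and 0.53 for numbers 1, 2 and 3. Arrays of different number ran from -0.54 to 0.42. With 3 arrays per group these correlations cannot decide whether the numbers pair the samples. In the siRNA comparison, with the replicate number as a block, 0 genes were called and the median stayed at 0.09 with 41 above 0.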
